A study of Mus musculus with 12 samples.

Results

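Tcf7, Lef1, Bcl11b, Tox, Tox2, Id3, Foxo1 and Bach2 encode transcription factors of T cell commitment and of the naive and memory states. They are 8 genes listed by name, out of 25899 gene symbols in the count table, and each was found on 1 row. All 8 passed the filter on low counts, and each was followed through 4 groups of sorted intraepithelial lymphocytes (IEL), the T cells and related lymphocytes that sit in the lining of the small intestine. Every host was a Rag2-/- mouse, which makes no T or B cells of its own. Donors of the conventional T cells were wild type for Themis and gave lymph node cells, of which each host received at least 2000000 in 1 intravenous injection 1 week before tissue was taken. Hosts of CD4 T cells gave TCRβ CD8αα cells, here CD8αα from CD4, and TCRβ CD4 cells, here CD4 IEL. Hosts of CD8αβ T cells gave TCRβ CD8αα cells, here CD8αα from CD8αβ, and TCRβ CD8αβ cells, here CD8αβ IEL. Each group had 3 bulk RNA-seq libraries, all with the genotype label WT. The sources used here do not give the strain, sex and age of donors and hosts. Library totals ran from 5618917 to 8874372 counts in CD8αα from CD4, 6380477 to 8594095 in CD4 IEL, 9311338 to 11068713 in CD8αα from CD8αβ and 6098526 to 9441851 in CD8αβ IEL. Whether each replicate is its own animal is not stated in the labels, so the p-values reflect spread among these samples alone.

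TCF-1 (the product of Tcf7) and LEF-1 bind DNA through an HMG box, recruit β-catenin or repressors of the Groucho/TLE family, and mark naive and stem-like memory T cells. BCL11B is a zinc-finger protein needed for T lineage commitment and for keeping innate lymphoid genes silent in T cells. TOX and TOX2 are HMG-box proteins, with TOX known for CD4 lineage choice in the thymus, for the development of innate lymphoid cells and for exhausted T cells. ID3 binds no DNA and blocks E proteins, FOXO1 drives genes of lymph node homing and survival, and BACH2 represses effector genes together with small MAF proteins.

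The libraries labelled CD8αα stood apart in genes that the labels concern. Cd3e, a chain of the receptor complex of T cells, was at 3.21 to 22.1 CPM (counts per 1000000 of the TMM-scaled library total) in the 6 libraries labelled CD8αα, against 403 to 638 CPM in the 6 libraries of CD4 IEL and CD8αβ IEL. Cd3d was at 11.6 to 28.2 against 216 to 749 CPM, Cd247 at 13.3 to 41.1 against 341 to 427 CPM, and Cd3g ran the other way at 1900 to 3777 against 424 to 1001 CPM. Cd8a, Cd8b1 and Cd4, the genes of the sorted proteins, ran with the labels. Cd8a was at 2430 to 3248 CPM in the 6 libraries labelled CD8αα. It was at 2083 to 2223 CPM in CD8αβ IEL and 45.7 to 48.4 CPM in CD4 IEL. Cd8b1 was at 2.53 to 20.6, 1086 to 1166 and 3.74 to 6.97 CPM in the same order. Cd4 was at 2.56 to 9.35, 11.6 to 42.2 and 1581 to 1747 CPM. The genes of the receptor's constant regions were not analysed here. All 6 libraries of CD4 IEL and CD8αβ IEL carried Y-linked transcripts, while 4 of the 6 labelled CD8αα carried Xist instead, namely replicates 1 and 2 in the CD4 progeny, with replicates 1 and 3 in the CD8αβ progeny. The words rose and fell below therefore compare libraries by their labels, and results over the 8 libraries with Y-linked transcripts alone are given where they end a call or move a value of the 8 genes by over 1.5 times. Those 8 hold 1 library of each group labelled CD8αα, which the fit assumes to vary like the other groups. Marker lists of other cells were summed in each library. The summed level of 12 markers of innate lymphoid and natural killer cells was 6410 to 6914 CPM in CD8αα from CD4 and 903 to 1101 CPM in CD4 IEL, then 7099 to 9324 CPM in CD8αα from CD8αβ and 1045 to 1501 CPM in CD8αβ IEL. Il2rb, Tyrobp and Fcer1g made up most of that sum, while Ncr1, which marks natural killer cells, was at 0 to 4.27, 4.04 to 7.17, 0.560 to 1.59 and 0 CPM in the same order of groups. Il1rl1, of the same 12, was at 0 in CD8αα from CD8αβ. The 12 epithelial markers summed to 230.4 to 282 CPM in CD8αα from CD4, 62.3 to 118 CPM in CD4 IEL, 303 to 576 CPM in CD8αα from CD8αβ and 160.4 to 489 CPM in CD8αβ IEL, with Lyz1 at 0 in both groups of the CD4 progeny. The epithelial sums of the CD8αβ progeny overlapped, and their genes did not move together. Epcam, a surface protein of epithelial cells, was at 183 to 232 CPM in CD8αα from CD8αβ and 13.9 to 51.9 CPM in CD8αβ IEL, while Vil1 was at 3.92 to 17.6 and 10.1 to 37.2 CPM, Fabp2 at 21.5 to 83.8 and 36.7 to 118 CPM, and Alpi at 8.61 to 34.3 and 14.2 to 55.1 CPM. The 9 myeloid markers summed to 1399 to 1565, 116 to 249, 931 to 1124 and 286 to 531 CPM in that order. Most of that sum in the libraries labelled CD8αα was Itgax, Fcgr3 and Itgam, each higher there in both progenies. The other myeloid genes did not move with them, apart from Cd14 in the CD4 progeny. Cd68 was at 4.606 to 13.1, 14.81 to 22.04, 11.02 to 14.02 and 50.67 to 59.02 CPM in the same order, and C1qa was also lower in both progenies. Csf1r, Lyz2 and H2-Ab1 were lower in CD8αα from CD8αβ and overlapped in the CD4 progeny. The 5 B cell markers summed to 45.2 to 55.2, 3.13 to 6.76, 67.3 to 75.0 and 10.45 to 20.6 CPM, nearly all of it Cd79b, with Pax5 at 0 in every library. The 8 proliferation genes summed to 309.8 to 365, 812 to 951, 391 to 416 and 1496 to 1783 CPM. The part of these cells and states in the results was not tested.

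Promoter sequences are shown for 3 genes that fell in both comparisons of libraries labelled CD8αα: Lef1 and Bcl11b, whose profiles over the 12 libraries were the closest pair among the 8 genes, and Tox2, which had the deepest fall. Each is the 250 bases before the most upstream RefSeq start in GRCm38.p6, and capitals mark the core bound by TCF-1 and LEF-1, CTTTGA on either strand. The windows are chr3:131110047-131110296 on the plus strand for Lef1, chr12:108003415-108003664 on the minus strand for Bcl11b, and chr2:163202877-163203126 on the plus strand for Tox2. GENCODE places the start of Bcl11b further upstream, inside the window printed.
Lef1: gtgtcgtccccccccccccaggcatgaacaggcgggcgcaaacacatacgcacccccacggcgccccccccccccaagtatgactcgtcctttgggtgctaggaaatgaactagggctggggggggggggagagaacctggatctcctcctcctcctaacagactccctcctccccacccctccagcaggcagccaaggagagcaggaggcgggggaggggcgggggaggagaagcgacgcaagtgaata
Bcl11b: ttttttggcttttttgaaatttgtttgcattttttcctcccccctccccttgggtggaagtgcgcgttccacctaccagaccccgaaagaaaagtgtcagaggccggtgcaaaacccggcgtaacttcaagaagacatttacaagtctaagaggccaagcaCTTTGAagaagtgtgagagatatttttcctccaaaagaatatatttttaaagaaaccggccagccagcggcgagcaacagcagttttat
Tox2: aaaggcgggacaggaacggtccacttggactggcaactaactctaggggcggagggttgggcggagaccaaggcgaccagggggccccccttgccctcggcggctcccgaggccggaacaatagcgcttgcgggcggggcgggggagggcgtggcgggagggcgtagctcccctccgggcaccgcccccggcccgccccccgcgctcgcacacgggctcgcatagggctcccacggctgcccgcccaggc
RefSeq windows matched 7 of the 8 genes, all but Tox. The TCF/LEF core was found in the windows of Bcl11b, 89 to 84 bases before the start, and of Bach2, 93 to 88 bases before it on the other strand. The Bach2 window, chr4:32417185-32417434, lies inside the gene, which starts at 32238804, so that match lies before an internal start. The Bcl11b match lies past the GENCODE start, 108003602, and so inside the gene by that annotation. The same core is in 14.1% of 27025 promoters of this length. A FOXO core, GTAAACA, is in 3.06% of all promoters and a RUNX core, TGTGGT, in 14.2%, and neither was in the windows of these genes. The E protein core CAGNTG, in 44.5% of all promoters, was found in the Tcf7 window alone, where it lies in sequence that a longer isoform may transcribe. Each match describes letters in a window and not a bound site.

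In the CD4 progeny, 5 of the 8 genes fell in libraries labelled CD8αα and 1 rose. Tcf7, Lef1, Bcl11b, Tox2 and Foxo1 were lower, and Tox was higher. Of all 12622 genes tested, 28.5% were called in this comparison at an adjusted p under 0.05, 15% higher and 13.5% lower. The median log2 fold change was −3.17 over the 8 genes and 0.02 over all genes tested, and it was the same with genes of 1 to 3 reads set at their counted ratio. In the CD8αβ progeny, 7 of the 8 fell, all but Tox, and none rose, against 31.2% of all genes called, 16.1% higher and 15.1% lower. The median there was −4.30 over the 8 genes and −0.0033 over all genes. Groups did not overlap for 6 of the 8 in the CD4 progeny, against 45.7% of all genes, and for 7 in the CD8αβ progeny, against 43.8%. Both comparisons called 5 genes lower (Tcf7, Lef1, Bcl11b, Tox2 and Foxo1), against 8.49% of all genes called lower in both. In bulk samples, fewer cells that hold a transcript and less of it per cell cannot be told apart.

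**Figure D1:**
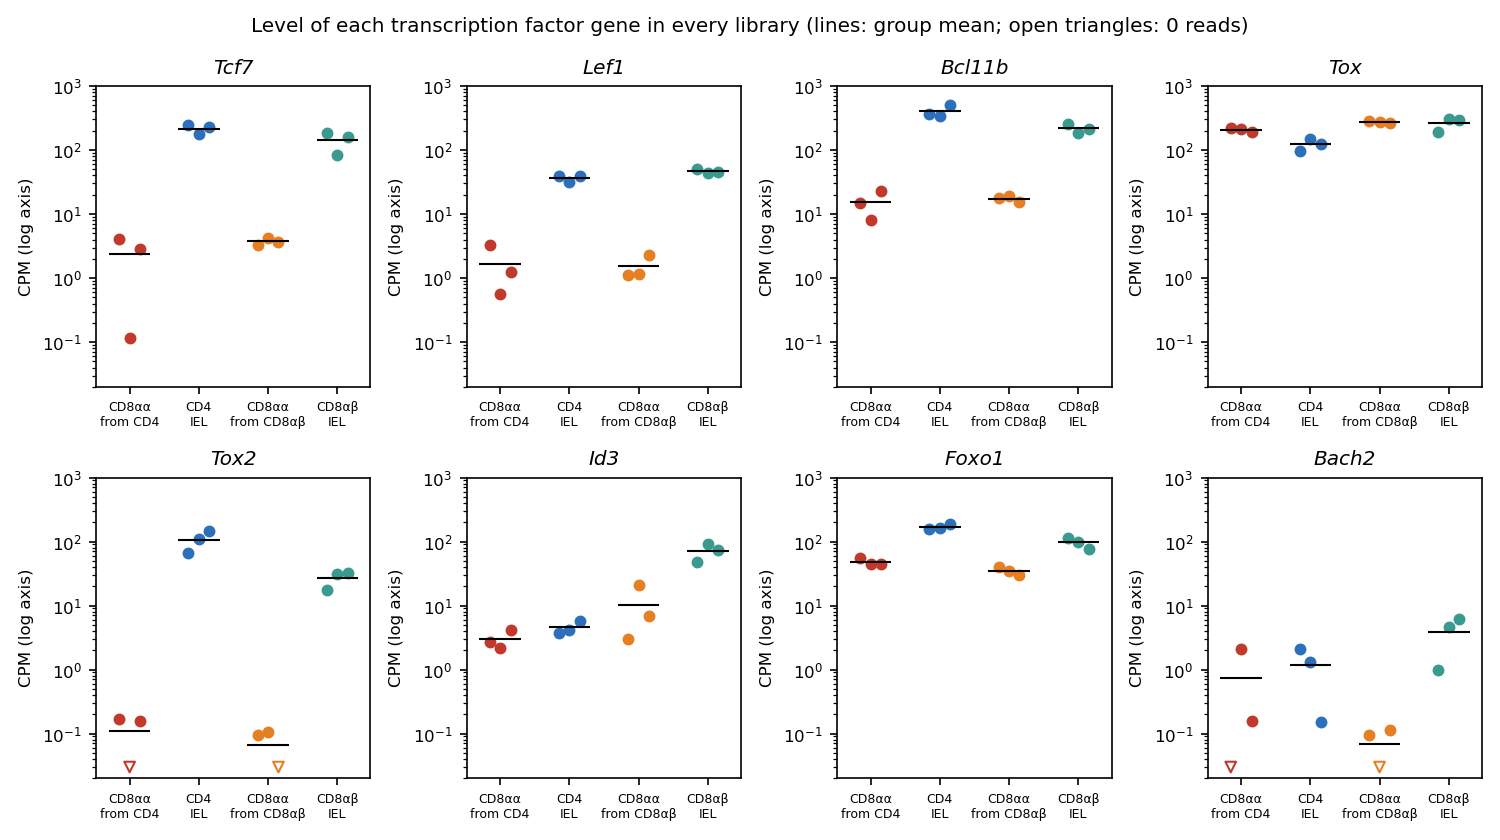
Levels in CPM on a log axis of the 8 genes in each of the 12 libraries, 3 a group, with the group mean as a line and libraries with 0 reads as open triangles. Tcf7, Lef1, Bcl11b, Tox2 and Foxo1 are lower in all 6 libraries labelled CD8αα than in any of the other 6, and the Tox levels of 193 to 286 CPM in the libraries labelled CD8αα lie within the 98.3 to 307 CPM of the others.

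Tcf7 (ENSMUSG00000000782, chromosome 11 of mm10, 52252371 to 52283014, minus strand) had 4.10, 0.115 and 2.81 CPM in the 3 libraries of CD8αα from CD4, against 245, 178 and 226 CPM in CD4 IEL. It had 3.27, 4.25 and 3.67 CPM in CD8αα from CD8αβ, against 182, 83.2 and 162 CPM in CD8αβ IEL. The highest library labelled CD8αα was far under the lowest companion, and replicate 2 of CD8αα from CD4 held a single read. Means were 2.34 ± 2.03 CPM in CD8αα from CD4 and 216 ± 34.9 CPM in CD4 IEL (SD, n = 3 each), a log2 fold change of −6.64 ± 0.56 (SE; edgeR quasi-likelihood adjusted p = 1.41e-06). In the other progeny the means were 3.73 ± 0.492 CPM in CD8αα and 143 ± 52.5 CPM in CD8αβ IEL, a log2 fold change of −5.25 ± 0.51 (adjusted p = 3.75e-06). Single libraries moved the CD4 progeny value by over 1.5 times, to −7.37 without replicate 1 of CD8αα from CD4 and −5.97 without replicate 2.

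Lef1 (ENSMUSG00000027985, chromosome 3, 131110471 to 131224356, plus strand), the relative of Tcf7 whose promoter is printed above, had 3.24, 0.572 and 1.25 CPM in CD8αα from CD4, against 39.3, 31.8 and 39.5 CPM in CD4 IEL. Its levels were 1.12, 1.17 and 2.30 CPM in CD8αα from CD8αβ, against 51.3, 43.8 and 45.9 CPM in CD8αβ IEL. Groups did not overlap in either progeny. Lef1 fell by 4.52 ± 0.44 on the log2 scale in the CD4 progeny (edgeR adjusted p = 4.64e-06) and by 4.95 ± 0.43 in the CD8αβ progeny (adjusted p = 1.47e-06). In CD8αα from CD4 the highest library was replicate 1 for Tcf7 and for Lef1, and the lowest was replicate 2 for both. Without replicate 1 the Lef1 log2 fold change in the CD4 progeny was −5.40. Lef1 exons share 1208 bases with the antisense gene Gm43352, which has no row in the count table.

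Bcl11b (ENSMUSG00000048251, chromosome 12, 107910403 to 108003602, minus strand) had 15.01, 8.01 and 23.1 CPM in CD8αα from CD4, against 371, 344.5 and 512 CPM in CD4 IEL. It had 17.7, 19.1 and 15.2 CPM in CD8αα from CD8αβ, against 255, 183 and 215 CPM in CD8αβ IEL. Every library labelled CD8αα kept Bcl11b reads, at least 70 in each, yet all 6 were under every companion. Bcl11b fell by 4.75 ± 0.32 on the log2 scale in the CD4 progeny (edgeR adjusted p = 2.12e-07; −4.15 over libraries with Y-linked transcripts alone) and by 3.65 ± 0.30 in the CD8αβ progeny (adjusted p = 9.33e-07).

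Tox2 (ENSMUSG00000074607, chromosome 2, 163203125 to 163324170, plus strand) was close to undetected in libraries labelled CD8αα, with 1, 0 and 1 reads in those from CD4 and 1, 1 and 0 in those from CD8αβ. In CPM these were 0.171, 0 and 0.156 in CD8αα from CD4, against 65.8, 109 and 144 in CD4 IEL, and 0.0934, 0.106 and 0 in CD8αα from CD8αβ, against 17.3, 30.7 and 32.6 in CD8αβ IEL. A library with 0 reads still allows a level of up to 3 reads, or 0.271 to 0.534 CPM over the range of library totals. The ratio of the CD4 IEL level over that in CD8αα from CD4 was 1071 with a 95% counting interval of 296 to 8852, from 2 reads in CD8αα and 2400 in CD4 IEL. From CD8αβ the same ratio was 389 (107 to 3217), from 2 reads in CD8αα and 614 in CD8αβ IEL. Both falls passed the test (edgeR adjusted p = 6.70e-08 for CD8αα from CD4, and 2.21e-07 for CD8αα from CD8αβ). That in the CD4 progeny had a fitted log2 fold change of −9.90, which was −9.21 without replicate 2 of CD8αα from CD4 and −9.27 over libraries with Y-linked transcripts alone.

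Tox (ENSMUSG00000041272, chromosome 4, 6686353 to 6991557, minus strand), the relative of Tox2, took the other course. It had 222, 209 and 193 CPM in CD8αα from CD4, against 98.3, 149 and 125 CPM in CD4 IEL, so that all 3 libraries labelled CD8αα were higher. It had 286, 273.5 and 268 CPM in CD8αα from CD8αβ, against 191.5, 307 and 297 CPM in CD8αβ IEL, and these groups overlapped. The rise in the CD4 progeny was 0.74 ± 0.19 on the log2 scale (208 ± 14.8 CPM in CD8αα and 124 ± 25.5 CPM in CD4 IEL; edgeR adjusted p = 0.00806). It was no longer called with the sex-linked profile as a covariate (0.68, adjusted p = 0.0507) or over libraries with Y-linked transcripts alone, which leave 1 library of CD8αα from CD4 (0.64, adjusted p = 0.253). In the CD8αβ progeny the log2 difference was 0.06 ± 0.18 (adjusted p = 0.852). Tox exons share 260 bases with the antisense gene Gm11802, which was counted at 19.96 to 23.5 CPM in CD8αα from CD4 and 10.2 to 14.99 CPM in CD4 IEL, the same order as Tox. With the strand setting of the counting not given, reads in that stretch cannot be told apart.

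Id3 (ENSMUSG00000007872, chromosome 4, 136143497 to 136145755, plus strand) had 2.73, 2.18 and 4.21 CPM in CD8αα from CD4, against 3.70, 4.17 and 5.84 CPM in CD4 IEL. The groups overlapped, and the log2 fold change of −0.59 ± 0.60 missed the threshold (edgeR adjusted p = 0.504). In the CD8αβ progeny Id3 had 2.99, 20.6 and 6.78 CPM in CD8αα, against 47.2, 90.0 and 72.5 CPM in CD8αβ IEL. There it fell by 2.79 ± 0.53 on the log2 scale (adjusted p = 0.00109). The 3 libraries of CD8αα from CD8αβ were far apart, and the highest was replicate 2, the one with Y-linked transcripts. The size of the fall rested on that library, with a log2 fold change of −3.85 without it (adjusted p = 3.61e-05) and −1.76 over libraries with Y-linked transcripts alone (adjusted p = 0.0322).

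Foxo1 (ENSMUSG00000044167, chromosome 3, 52268337 to 52350109, plus strand) had the smallest falls of those called in both progenies. It had 55.1, 44.0 and 45.1 CPM in CD8αα from CD4, against 159, 164 and 189 CPM in CD4 IEL, and 39.9, 34.7 and 30.3 CPM in CD8αα from CD8αβ, against 113, 99.3 and 77.3 CPM in CD8αβ IEL. All libraries labelled CD8αα were under all companions. Foxo1 was 3.56-fold lower in CD8αα from CD4 (log2 fold change −1.83 ± 0.18, edgeR adjusted p = 4.46e-06) and 2.76-fold lower in CD8αα from CD8αβ (−1.46 ± 0.18, adjusted p = 2.60e-05). Its exons share 674 bases with the antisense gene Gm20402, which held 386 reads over the 12 libraries against 8224 for Foxo1.

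Bach2 (ENSMUSG00000040270, chromosome 4, 32238804 to 32586108, plus strand) was the least abundant gene by length in 3 of the 4 groups. Its exons share 537 bases with the antisense gene Bach2os, which held 13 reads over the 12 libraries against 138 for Bach2. Bach2 reads were 0, 18 and 1 in CD8αα from CD4, against 19, 10 and 1 in CD4 IEL. They were 1, 0 and 1 in CD8αα from CD8αβ, against 7, 43 and 37 in CD8αβ IEL. In CD8αα from CD4 replicate 2 held nearly all reads, replicate 3 of CD4 IEL held 1, the groups overlapped, and the log2 fold change of −0.60 ± 1.19 did not pass (edgeR adjusted p = 0.753). Without replicate 2 it was −3.65 (adjusted p = 0.125), and over libraries with Y-linked transcripts alone −2.81 (adjusted p = 0.453). Among CD8αβ progeny Bach2 fell (adjusted p = 0.0121). The ratio of the CD8αβ IEL level over that in CD8αα was 55.1 with a counting interval of 14.8 to 462, from 2 reads in CD8αα and 87 in CD8αβ IEL. The fitted log2 fold change was −5.51, and the call ended over the libraries with Y-linked transcripts alone (−7.91, adjusted p = 0.11).

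**Figure D2:**
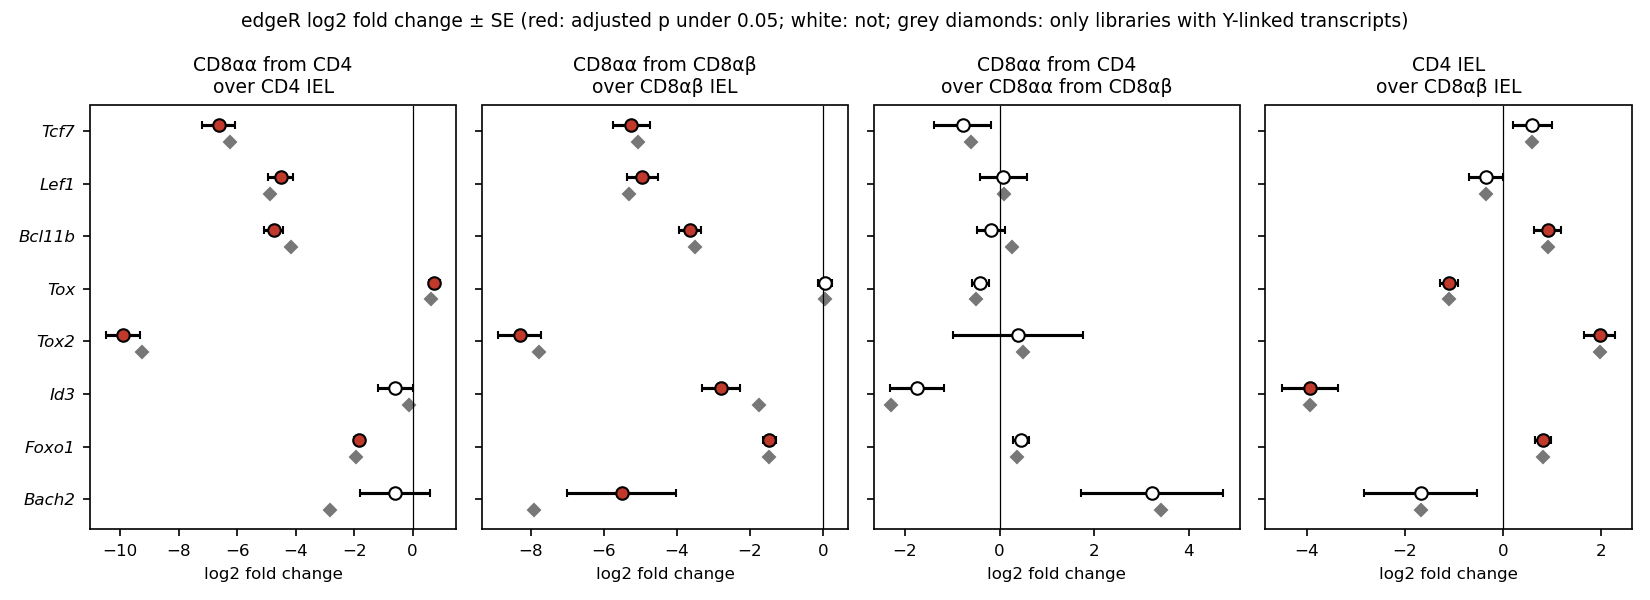
Log2 fold change ± SE from edgeR for the 8 genes in 4 comparisons, with red points past an adjusted p of 0.05, white points not past it, and grey diamonds for the fit over libraries with Y-linked transcripts alone. The left panels show 5 genes lower in both progenies and Tox higher in the CD4 progeny by 0.74, and the panel of the groups labelled CD8αα holds no red point.

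Expressed as a share of the companion group's mean, the genes differed widely in how much signal the libraries labelled CD8αα retained. Tox2 kept 0 to 0.161% of the CD4 IEL mean in CD8αα from CD4 and 0 to 0.395% of the CD8αβ IEL mean in CD8αα from CD8αβ. Tcf7 kept 0.0529 to 1.89% and 2.29 to 2.98%, Lef1 1.55 to 8.79% and 2.39 to 4.89%, and Bcl11b 1.96 to 5.64% and 6.97 to 8.79% in the same order. Foxo1 kept 25.7 to 32.3% and 31.4 to 41.3%, and Tox stood at 155 to 179% and 101 to 108%. Among genes of T cell receptor signalling, Cd3e kept 0.576 to 2.30% and 2.86 to 4.49%, Cd3d 4.99 to 12.1% and 2.58 to 3.04%, and Themis 1.94 to 2.22% and 3.48 to 5.56%, whereas the kinase gene Lck kept 74.6 to 81.2% and 84.0 to 89.9% and Cd3g stood at 424 to 523% and 349 to 400%.

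**Figure D3:**
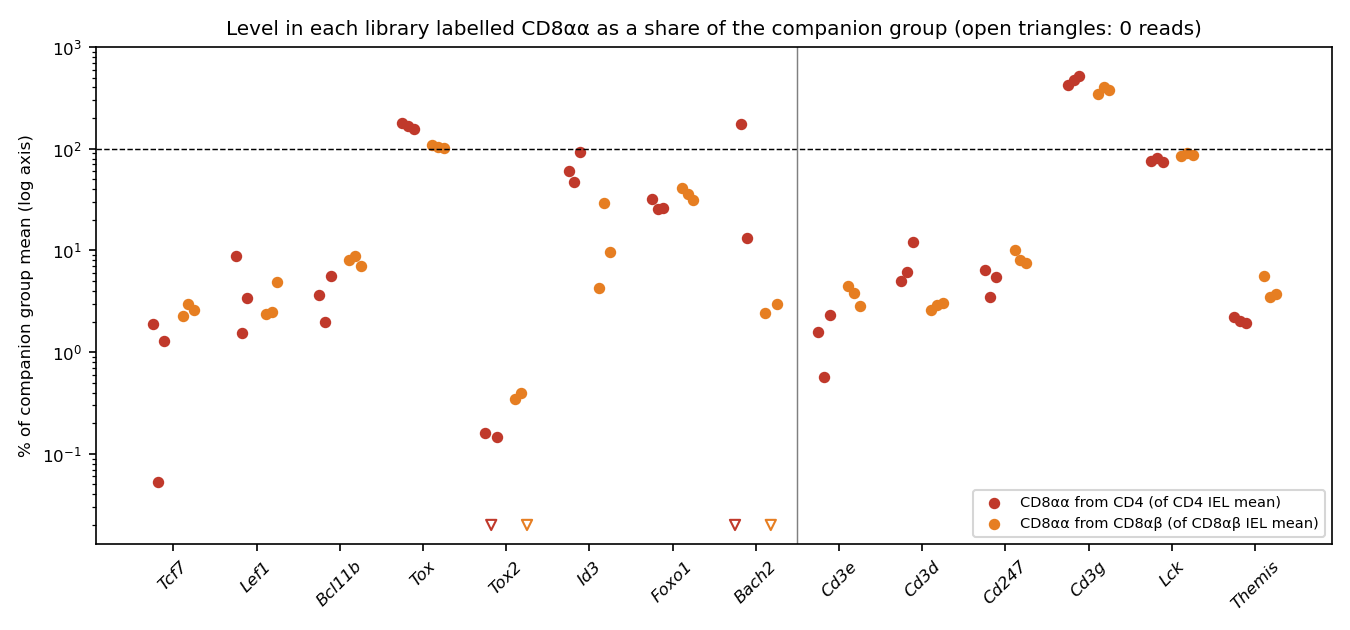
Level of each gene in the 6 libraries labelled CD8αα as a percentage of the companion group's mean, on a log axis, with the 8 transcription factor genes on the left and 6 genes of T cell receptor signalling on the right; open triangles are libraries with 0 reads. Tcf7, Lef1 and Bcl11b lie at 0.0529 to 8.79%, beside Cd3e, Cd3d, Cd247 and Themis at 0.576 to 12.1%, while Tox lies above 100% with Cd3g.

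Levels can be compared between genes only per length, as CPM per kilobase of merged exon. On this scale Tcf7 was first of the 8 in both companion groups, at 82.4 in CD4 IEL and 54.3 in CD8αβ IEL, and ranked 5 in the libraries labelled CD8αα, at 0.891 in those from CD4 and 1.42 in those from CD8αβ. Tox was first in both groups labelled CD8αα, at 27.4 in that from CD4 and 36.2 in that from CD8αβ. It ranked 5 in CD4 IEL at 16.3 and 3 in CD8αβ IEL at 34.8. Foxo1 was second in CD8αα from CD4 at 5.54, and Id3 was second in CD8αα from CD8αβ at 5.65. Bcl11b was second in CD4 IEL at 50.5, where it lay above 93.1% of the genes tested that have a length.

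Between the groups labelled CD8αα, none of the 8 genes passed the edgeR test, against 4.34% of all genes. At an unadjusted p under 0.05 there were 3 (Tox, Id3 and Foxo1), and DESeq2 called 1, Id3. The share of all genes under that unadjusted threshold was not counted, so the 3 cannot be read as an excess. Id3 averaged 3.04 ± 1.05 CPM in CD8αα from CD4, against 10.1 ± 9.27 CPM in CD8αα from CD8αβ, a log2 fold change of −1.74 ± 0.57 (edgeR adjusted p = 0.109; DESeq2 adjusted p = 0.0257). The Id3 groups overlapped. Without replicate 1 of CD8αα from CD8αβ the Id3 difference was −2.18 (edgeR adjusted p = 0.0207). Without replicate 2 of that group, its highest library for Id3, the difference was −0.68 (adjusted p = 0.56). Foxo1 averaged 48.0 ± 6.14 CPM in CD8αα from CD4, against 35.0 ± 4.79 CPM in CD8αα from CD8αβ, with no overlap and a log2 difference of 0.46 ± 0.17 (edgeR adjusted p = 0.170). Tox averaged 208 ± 14.8 CPM and 276 ± 9.27 CPM in the same order, with no overlap and a difference of −0.41 ± 0.18 (adjusted p = 0.253). Groups did not overlap for these 2 genes of the 8 and for 28.8% of all genes. Tcf7, Lef1 and Bcl11b differed by −0.78 ± 0.60, 0.08 ± 0.49 and −0.19 ± 0.30 on the log2 scale. Bach2 had 19 reads in CD8αα from CD4, of which 18 were in replicate 2, and 2 in CD8αα from CD8αβ, a ratio of 13.04 with a counting interval of 3.15 to 115 (edgeR adjusted p = 0.266).

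Between CD4 IEL and CD8αβ IEL, 3 of the 8 genes were higher in CD4 IEL and 2 lower, against 28.9% of all genes called, 12.9% higher and 16% lower. Tox2 averaged 106 ± 39.1 CPM in CD4 IEL and 26.9 ± 8.32 CPM in CD8αβ IEL, 3.95-fold higher in CD4 IEL (edgeR adjusted p = 0.000655). Foxo1 averaged 171 ± 16.2 CPM in CD4 IEL and 96.6 ± 18.03 CPM in CD8αβ IEL, 1.77-fold higher (adjusted p = 0.00352). Bcl11b averaged 409 ± 90.0 CPM in CD4 IEL and 218 ± 35.96 CPM in CD8αβ IEL, 1.88-fold higher (adjusted p = 0.0223). The Bcl11b call rested on single libraries, since it ended without replicate 3 of CD4 IEL, replicate 2 of CD8αβ IEL or replicate 3 of CD8αβ IEL (adjusted p = 0.0893, 0.0721 and 0.0519). Id3 ran the other way, at 4.57 ± 1.12 CPM in CD4 IEL and 69.9 ± 21.5 CPM in CD8αβ IEL, 15.4-fold lower in CD4 IEL (adjusted p = 0.000321). Tox averaged 124 ± 25.5 CPM in CD4 IEL and 265 ± 63.8 CPM in CD8αβ IEL, 2.13-fold lower (adjusted p = 0.000976). Tcf7 (log2 fold change 0.60 ± 0.40), Lef1 (−0.35 ± 0.34) and Bach2 (−1.68 ± 1.15) did not pass, although the Lef1 groups did not overlap. In all, 6 of the 8 genes had no overlap here, against 41.5% of all genes.

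Ordered by mean level, neighbouring groups often did not differ. For Tcf7 the order was CD4 IEL, CD8αβ IEL, CD8αα from CD8αβ and CD8αα from CD4, and only the step from CD8αβ IEL to CD8αα from CD8αβ passed the test. Bcl11b, Tox2 and Foxo1 had CD4 IEL first and CD8αβ IEL second, each step down to the groups labelled CD8αα passed, and the order within those 2 groups did not. Tox was highest in CD8αα from CD8αβ, then in CD8αβ IEL and CD8αα from CD4, 3 groups whose neighbours did not pass (edgeR adjusted p = 0.852 and 0.150), and lowest in CD4 IEL. These neighbour tests include CD8αα from CD4 against CD8αβ IEL, where 39.7% of all genes were called, and CD8αα from CD8αβ against CD4 IEL, where 38.7% were. Id3 stood out in CD8αβ IEL, above CD8αα from CD8αβ, while CD8αα from CD8αβ, CD4 IEL and CD8αα from CD4 formed a run in which no neighbours passed.

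Whether the change with the CD8αα label differed between progenies was tested as an interaction, and none of the 8 genes passed in edgeR, against 2.56% of all genes. At an unadjusted p under 0.05 there were 4 (Bcl11b, Tox, Id3 and Bach2), and DESeq2 called 0. Here too the share of all genes under the unadjusted threshold was not counted. Id3, called in the CD8αβ progeny and not in the CD4 progeny, had a log2 difference of 2.20 ± 0.79 between the changes (edgeR adjusted p = 0.159), and it passed with the sex-linked profile as covariate (adjusted p = 0.0381), with the replicate block (2.51, adjusted p = 0.0287) or without replicate 2 of CD8αα from CD8αβ (3.26, adjusted p = 0.0128). Leaving out 1 library at a time gave Id3 differences of 1.76 to 3.26, with edgeR adjusted p from 0.0128 to 0.3515. Over libraries with Y-linked transcripts alone the Id3 difference was 1.65. For Bcl11b the difference was −1.10 (adjusted p = 0.165), which passed with the replicate block (−1.18, adjusted p = 0.0435). For Tox, called in the CD4 progeny alone, the difference was 0.69 ± 0.26 (adjusted p = 0.181). For Bach2 it was 4.91 ± 1.89 (adjusted p = 0.189), and 1.86 without replicate 2 of CD8αα from CD4 (adjusted p = 0.766).

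Likeness of pattern was measured as the root mean square distance between centred log2 CPM profiles over the 12 libraries, where 0 is the same pattern. Among the 8 genes the closest pairs were Lef1 with Bcl11b at 0.69 and Tcf7 with Lef1 at 1.04, and the farthest pair was Tox with Tox2 at 4.02. Over all tested genes apart from predicted ones and receptor segments, Tcf7 was closest to Cd3e at 0.61, against a median of 3.21. Cd3e averaged 8.23 CPM in CD8αα from CD4 and 557 CPM in CD4 IEL, and 18.4 CPM in CD8αα from CD8αβ and 493 CPM in CD8αβ IEL. Lef1 was closest to the phosphatase gene Dusp2 (0.50), Bcl11b to the lipid phosphatase gene Inpp4b (0.39), and Tox2 to Tnfsf11 (0.46), which encodes the cytokine RANKL. Foxo1 was closest to the receptor gene Notch1 at 0.24, against a median of 1.05. Notch1 averaged 72.2 CPM in CD8αα from CD4 and 222 CPM in CD4 IEL, and 53.6 CPM in CD8αα from CD8αβ and 138 CPM in CD8αβ IEL. Tox was closest to the glycolytic gene Tpi1 (0.16), Id3 to Trim30c (0.67) and Bach2 to Car5b (0.62), a mitochondrial carbonic anhydrase gene.

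Lists of genes related to the 8 by function were followed in the same fits, where 28.5% of all genes were called for CD8αα from CD4, with 31.2% for CD8αα from CD8αβ. When only libraries with Y-linked transcripts were used, all genes called were 1280 in the CD4 progeny, against 3597 with all libraries, and 1421 in the CD8αβ progeny, against 3940. Among naive, stem-like and memory T cell genes, 1 of 17 tested rose and 13 fell in CD8αα from CD4, with a median log2 fold change of −4.03 against 0.02 over all genes, and 0 rose and 15 fell in CD8αα from CD8αβ, with a median of −3.29 against −0.0033. Cd28, a costimulatory receptor, averaged 1.79 ± 1.48 CPM in CD8αα from CD4 and 581 ± 122 CPM in CD4 IEL (log2 fold change −8.40 ± 0.48, edgeR adjusted p = 5.50e-08). It averaged 1.41 ± 0.810 CPM in CD8αα from CD8αβ and 438 ± 120.2 CPM in CD8αβ IEL (−8.23 ± 0.47, adjusted p = 3.28e-08). The Cd28 values were −9.30 without replicate 3 of CD8αα from CD4 and −8.84 without replicate 1 of CD8αα from CD8αβ. Cxcr5, the receptor that guides cells to follicles, had 0 reads in CD8αα from CD4 and 96 in CD4 IEL, at least 28.6-fold lower against 3 counts over the group. Eomes, a T-box factor of memory CD8 cells, had 0.249 ± 0.431 CPM in CD8αα from CD8αβ and 57.1 ± 2.71 CPM in CD8αβ IEL. Over libraries with Y-linked transcripts alone the counts were 1 higher and 10 lower in the CD4 progeny and 0 higher and 11 lower in the CD8αβ progeny.

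Of 17 tested FOXO1 relatives and targets, 4 rose and 6 fell in CD8αα from CD4 (median −0.22), and 3 rose and 7 fell in CD8αα from CD8αβ (median −0.08). The counts were 1 higher and 5 lower, then 2 higher and 4 lower, over libraries with Y-linked transcripts alone. S1pr1, the receptor for exit from lymphoid tissue, averaged 0.532 ± 0.513 CPM in CD8αα from CD4 and 38.0 ± 10.3 CPM in CD4 IEL (log2 fold change −6.14 ± 0.56, edgeR adjusted p = 2.64e-06; −6.83 without replicate 1 of CD8αα from CD4). S1pr1 in the CD8αβ progeny had 2 reads in CD8αα and 1434 in CD8αβ IEL, a ratio of 908 (counting interval 251 to 7504). Ccr7, the receptor for entry to lymph nodes, had 2 reads in CD8αα from CD4 and 222 in CD4 IEL, a ratio of 99.1 (27.1 to 823). Il7r, the IL-7 receptor chain, averaged 2.93 ± 0.344 CPM in CD8αα from CD8αβ and 64.8 ± 17.7 CPM in CD8αβ IEL (−4.46 ± 0.35, adjusted p = 5.16e-07). Bcl2, Foxo3 and Bcl2l11 were called higher in both progenies, and Rag1 in the CD4 progeny alone. Bcl2 averaged 500 CPM in CD8αα from CD4 and 113 CPM in CD4 IEL (log2 fold change 2.15). It averaged 904 CPM in CD8αα from CD8αβ and 189.5 CPM in CD8αβ IEL (2.25). Foxo3 rose by 1.04 and 1.65 and Bcl2l11 by 0.60 and 0.89 on the log2 scale in the same order. Not all of these calls held over libraries with Y-linked transcripts alone. Between the groups labelled CD8αα, Il7r was higher in CD8αα from CD4, at 11.98 ± 5.86 CPM and 2.93 ± 0.344 CPM in CD8αα from CD8αβ (2.02 ± 0.35, adjusted p = 0.00693). Ctla4, an inhibitory receptor gene, was also higher there, at 73.8 ± 36.1 CPM in CD8αα from CD4 and 22.9 ± 2.45 CPM in CD8αα from CD8αβ (1.70 ± 0.27, adjusted p = 0.00437). Over libraries with Y-linked transcripts alone, 1 against 1 in this comparison, neither was called (2.75 for Il7r and 1.54 for Ctla4, adjusted p = 0.228 for each).

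Cofactors of TCF-1 and LEF-1 and Wnt pathway genes were called about as often as all genes, of which 28.5% and 31.2% were called in the CD4 and CD8αβ progenies. Of 14 tested, 3 rose and 1 fell in CD8αα from CD4 (median 0.0082), and 2 rose and 2 fell in CD8αα from CD8αβ (median −0.22). In each, 1 rose and 0 fell over libraries with Y-linked transcripts alone. Tle2, a Groucho corepressor, averaged 22.8 ± 4.74 CPM in CD8αα from CD4 and 1.10 ± 0.475 CPM in CD4 IEL (log2 fold change 4.38 ± 0.34, edgeR adjusted p = 6.75e-07). It averaged 34.3 ± 6.18 CPM in CD8αα from CD8αβ and 3.64 ± 0.443 CPM in CD8αβ IEL (3.23 ± 0.30, adjusted p = 2.71e-06). Axin2, a feedback target of the Wnt pathway, fell by 1.48 ± 0.44 in CD8αα from CD4 (adjusted p = 0.0212) and by 1.38 ± 0.45 in CD8αα from CD8αβ (adjusted p = 0.0314). Both Axin2 calls ended over the libraries with Y-linked transcripts alone, at −1.69 in the CD4 progeny (adjusted p = 0.187) and −1.09 in the CD8αβ progeny (adjusted p = 0.4). That in the CD4 progeny also ended without replicate 2 or 3 of CD8αα from CD4 or replicate 2 of CD4 IEL (adjusted p = 0.0761, 0.0739 and 0.0595), and that in the CD8αβ progeny without replicate 1 or 3 of CD8αα from CD8αβ or replicate 3 of CD8αβ IEL (adjusted p = 0.118, 0.0605 and 0.123). With the sex-linked profile as covariate neither passed (adjusted p = 0.114 and 0.128), and with the replicate block that in the CD8αβ progeny did not (adjusted p = 0.0635).

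In the network of T cell commitment and E proteins, 3 of 20 tested genes rose and 9 fell in CD8αα from CD4 (median −0.36), and 2 rose and 5 fell in CD8αα from CD8αβ (median −0.37). The counts from libraries with Y-linked transcripts alone were 1 higher and 5 lower, then 1 higher and 4 lower. Satb1, a chromatin organiser of T cell development, averaged 4.27 ± 1.60 CPM in CD8αα from CD4 and 71.3 ± 12.5 CPM in CD4 IEL (log2 fold change −4.03 ± 0.34, edgeR adjusted p = 1.39e-06). It averaged 1.15 ± 0.399 CPM in CD8αα from CD8αβ and 35.2 ± 10.9 CPM in CD8αβ IEL (−4.89 ± 0.38, adjusted p = 4.82e-07). Among the genes on which ID3 acts or that share its role, chosen after their values were seen, the E protein gene Tcf3 averaged 71.7 CPM in CD8αα from CD4 and 162 CPM in CD4 IEL, while Tcf4 ran the other way at 108 CPM and 10.3 CPM. Id2, the other main inhibitor, averaged 463 CPM in CD8αα from CD4 and 472 CPM in CD4 IEL, and 471 CPM in CD8αα from CD8αβ and 606 CPM in CD8αβ IEL.

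Of 11 tested TOX relatives and exhaustion-linked genes, 2 rose and 7 fell in CD8αα from CD4 (median −0.53), and 2 rose and 4 fell in CD8αα from CD8αβ (median −0.25). From libraries with Y-linked transcripts alone the counts were 2 higher and 4 lower, then 2 higher and 3 lower. Pdcd1, the gene of the inhibitory receptor PD-1, averaged 0.667 ± 0.908 CPM in CD8αα from CD4 and 101 ± 29.1 CPM in CD4 IEL (log2 fold change −7.29 ± 0.50, edgeR adjusted p = 2.23e-07), and 0.925 ± 0.171 CPM in CD8αα from CD8αβ and 376 ± 90.9 CPM in CD8αβ IEL (−8.63 ± 0.47, adjusted p = 2.52e-08). The Pdcd1 value in the CD4 progeny was −9.37 without replicate 3 of CD8αα from CD4 and −6.67 without replicate 2. Nr4a1, an early gene of receptor signalling, averaged 265 ± 12.7 CPM in CD8αα from CD4 and 2330.0 ± 216 CPM in CD4 IEL (−3.14 ± 0.14, adjusted p = 7.27e-09). Havcr2, which encodes TIM-3, averaged 3.35 ± 1.41 CPM in CD8αα from CD8αβ and 138 ± 48.6 CPM in CD8αβ IEL (−5.37 ± 0.39, adjusted p = 2.77e-07). Across the 6 libraries labelled CD8αα Tox was at 193 to 286 CPM, where Pdcd1 was at 0.115 to 1.71 CPM.

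Of 11 tested partners, relatives and repressed targets of BACH2, 1 rose and 5 fell in CD8αα from CD4 (median −0.57), and 4 rose and 4 fell in CD8αα from CD8αβ (median 0.47). Libraries with Y-linked transcripts alone gave 1 higher and 1 lower, then 2 higher and 2 lower. The 1 that rose in CD8αα from CD4 was Gzmb, the granzyme B gene (log2 fold change 2.50, edgeR adjusted p = 7.26e-05). Gzmb also rose in CD8αα from CD8αβ (2.51, adjusted p = 5.88e-05), as did Gadd45g (1.54, adjusted p = 0.000637). S100a4, a calcium-binding protein of effector and memory cells, had 0 reads in CD8αα from CD4 and 188 in CD4 IEL, at least 55.9-fold lower. It had 2 reads in CD8αα from CD8αβ and 1206 in CD8αβ IEL, a ratio of 763.5 (211 to 6312). Ccl1, a chemokine gene, had 0 reads in CD8αα from CD4 and 93 in CD4 IEL, at least 27.7-fold lower, and that call ended over the libraries with Y-linked transcripts alone (adjusted p = 0.0842) and with the sex-linked profile as covariate (0.0518). Of 17 effector and innate transcription factors, 5 rose and 8 fell in CD8αα from CD4 (median −0.36), and 4 rose and 6 fell in CD8αα from CD8αβ (median −0.17). For those, libraries with Y-linked transcripts alone gave 2 higher and 5 lower, then 2 higher and 4 lower. Zbtb16, which encodes PLZF, a factor of innate-like T cells, averaged 22.4 ± 4.08 CPM in CD8αα from CD4 and 0.386 ± 0.462 CPM in CD4 IEL (log2 fold change 5.93 ± 0.77, edgeR adjusted p = 6.56e-05), and 23.1 ± 1.91 CPM in CD8αα from CD8αβ and 0.419 ± 0.637 CPM in CD8αβ IEL (5.92 ± 0.77, adjusted p = 5.61e-05). The Zbtb16 value ranged to 7.37 without replicate 3 and 5.26 without replicate 1 of CD4 IEL, and to 8.22 without replicate 3 of CD8αβ IEL. Rora, a nuclear receptor gene, averaged 9.0 ± 4.87 CPM in CD8αα from CD4 and 439 ± 35.8 CPM in CD4 IEL (−5.62 ± 0.48, adjusted p = 1.41e-06).

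Among 13 pan-T genes, including those of the receptor complex, 1 rose and 12 fell in CD8αα from CD4 (median −4.30), and 1 rose and 10 fell in CD8αα from CD8αβ (median −4.74). The 1 that rose was Cd3g in both. In each progeny 1 rose and 9 fell over libraries with Y-linked transcripts alone. Cd6, an adhesion receptor, averaged 8.63 ± 8.90 CPM in CD8αα from CD4 and 1933 ± 22.1 CPM in CD4 IEL. Cd5, a negative regulator of receptor signalling, averaged 3.40 ± 4.35 CPM in CD8αα from CD4 and 693 ± 42.7 CPM in CD4 IEL, and 0.810 ± 0.494 CPM in CD8αα from CD8αβ and 368 ± 49.2 CPM in CD8αβ IEL. Cd2, an adhesion receptor, averaged 0.556 ± 0.627 CPM in CD8αα from CD8αβ and 289 ± 14.6 CPM in CD8αβ IEL. The part of these genes' low levels in the results for Tcf7, Lef1, Bcl11b and Tox2 was not tested.

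**Figure D4:**
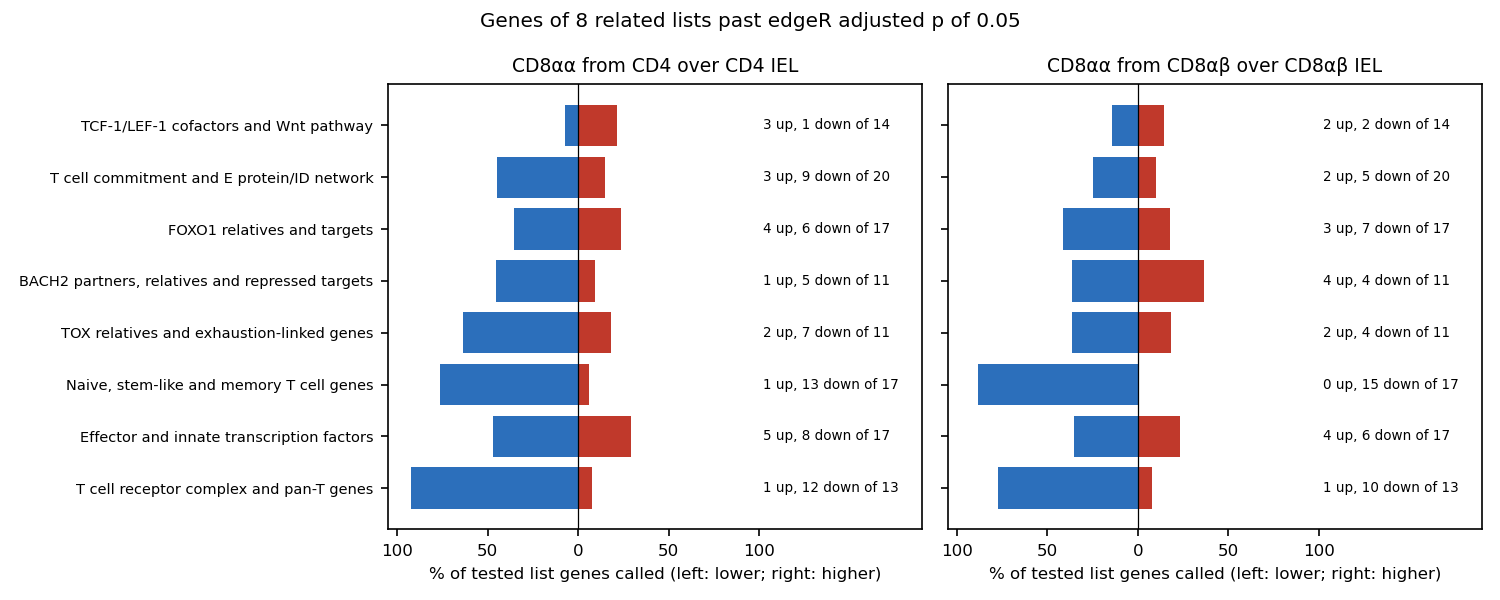
Percentage of tested genes in 8 related lists past an edgeR adjusted p of 0.05, drawn to the left where lower and to the right where higher in libraries labelled CD8αα. The naive, stem-like and memory list and the T cell receptor list lean to lower levels in both panels, with 13 and 15 of 17 and with 12 and 10 of 13 genes lower, while the TCF-1/LEF-1 cofactor list has 3 higher and 1 lower of 14 in the CD4 progeny.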

How the data were processed

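Bulk RNA-seq was made from 12 libraries of sorted IEL, grouped by their titles and progeny labels. The deposited table holds whole-number read counts per gene, not normalised, made by the authors. Reads were aligned with HISAT2 2.1.0 to mm10, per the submitters' processing notes. The counting program, annotation and strand setting are not named in the sources used here, so genes that overlap on opposite strands are uncertain. The labels' protocols name a column RNA kit and a magnetic-bead kit for libraries, and pooling is not mentioned. Of 25965 rows, 66 repeated a symbol with fewer reads and were left out, with 0.0202% of reads. Rows of receptor constant regions were not analysed here. Replicates of a group differed by a chi-square per gene of 11.4 to 60.2, so none looked like 1 library deposited more than once.

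Genes were kept by filterByExpr (minimum count 10, minimum total 15), which left 12622. Counts were scaled by TMM and tested, two-sided, by the quasi-likelihood method of edgeR 4.0.16 in R 4.3.3, all 12 libraries in 1 model with 1 mean per group, and p-values were adjusted by Benjamini-Hochberg over all genes within each of 5 comparisons. Genes were called at 0.05. The test was tried on simulated counts with 200 genes changed. Levels are CPM of TMM-scaled totals, mean ± SD. For a group with 0 reads the fold is a bound against 3 counts over the group, and for 1 to 3 reads the ratio has an exact 95% interval, and both cover counting error only. Merged exon lengths came from GENCODE and promoters from RefSeq. DESeq2 1.42.0, other scalings, no filter, a replicate block, the sex-linked profile and leaving out libraries were alternatives. Named genes were the 8, up to 2 called genes per list and comparison with the largest change, and the closest genes by profile. Lag3, Entpd1, Bcl2, Foxo3, Bcl2l11, Rag1 and Gzmb were added after their values were seen, to name list genes that rose. Some genes that these rules name are not reported here. The 8 genes, the lists and the alternatives were chosen with earlier results of these data known.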

Additional observations from a re-analysis of the deposited data

Results flagged for a closer look

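In 8 genes of the related lists, the change with the CD8αα label differed between the CD4 and the CD8αβ progeny by edgeR's interaction test, which called 2.56% of all genes. Values are the log2 change in the CD4 progeny minus that in the CD8αβ progeny. The difference was 2.40 for Cd27 (adjusted p = 0.000424), a costimulatory receptor gene, which averaged 70.8 CPM in CD8αα from CD4 and 35.1 CPM in CD4 IEL, and 113.5 CPM in CD8αα from CD8αβ and 297 CPM in CD8αβ IEL. It was −1.52 for Nr4a1 (adjusted p = 0.000631), −1.37 for the small MAF gene Mafg (0.0117), 3.39 for the memory marker gene Ly6c2 (0.0129) and −1.82 for Ahr (0.0172), which encodes the aryl hydrocarbon receptor. It was −1.83 for Runx1 (0.0188), a factor of T cell commitment, 2.50 for Havcr2 (0.0199) and 1.44 for Cd3d (0.0410). None of the 8 transcription factor genes met this test. Over libraries with Y-linked transcripts alone, with 1 library in each group labelled CD8αα, all 8 list genes kept their sign and none was called (adjusted p = 0.067 for Cd3d to 0.555 for Runx1). Leaving out 1 library at a time ended the calls of Ahr (adjusted p up to 0.055), Cd3d (0.108), Havcr2 (0.0629), Ly6c2 (0.0538) and Runx1 (0.0626). For Ahr this was replicate 2 or 3 of CD8αα from CD4, and for Ly6c2 replicate 3. For Havcr2 it was replicate 2 or 3 of CD8αα from CD4 or replicate 1 of CD8αα from CD8αβ, and for Runx1 replicate 2 or 3 of CD8αα from CD4 or replicate 3 of CD8αα from CD8αβ. Cd3d lost its call in 10 of the 12 cases.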

How the results depend on the processing

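The 13 calls of the 8 genes in the CD8αα comparisons kept their direction under the alternatives run. They ended with the sex-linked profile as covariate for Tox in the CD4 progeny (0.68), over the libraries with Y-linked transcripts alone for Tox there (0.64) and for Bach2 in the CD8αβ progeny (−7.91). When only the groups compared were fitted, Bach2 fell under the count filter in the CD8αβ progeny, which left 6 genes called instead of 7.

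Over libraries with Y-linked transcripts alone, which leave 1 library in each group labelled CD8αα and take the spread from the other groups, all genes called were 1280 in the CD4 progeny, 1421 in the CD8αβ progeny, 1 between the groups labelled CD8αα and 13 for the interaction. With only the groups compared the count between the groups labelled CD8αα was 959, and with DESeq2 it was 1036, with 806 for the interaction. DESeq2 called 1 of the 8 genes between the groups labelled CD8αα, and the sex-linked covariate called 1 for the interaction. Leaving out 1 library at a time gave 166 to 714 genes called between the groups labelled CD8αα and 147 to 368 for the interaction, with 0 to 1 of the 8 genes in each.

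Uncalled differences changed sign. Id3 in the CD4 progeny was 0.39 with the covariate. Tox in the CD8αβ progeny was −0.0013 with library totals alone and −0.0014 with the covariate. Bcl11b between the groups labelled CD8αα was 0.27 over libraries with Y-linked transcripts. Leaving out libraries gave −3.65 to 0.0534 for Bach2 in the CD4 progeny, −0.13 to 0.18 for Tox in the CD8αβ progeny, −0.75 to 0.55 for Lef1, −0.61 to 0.14 for Bcl11b and −0.0468 to 1.07 for Tox2 between the groups labelled CD8αα, and −0.41 to 0.90 for the Lef1 interaction. The cause was not tested. Library totals alone moved the median of all genes between CD4 IEL and CD8αβ IEL by 0.118, with the same 3 genes higher and 2 lower.

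Replicate numbers were not taken to pair the samples, since not every same-numbered pair correlated above 0.1 in its deviations (−0.0155 to 0.0602 in the CD4 progeny and 0.0978 to 0.326 in the CD8αβ progeny). Differently numbered pairs ran from −0.0734 to 0.0571 in the CD4 progeny and from −0.257 to 0.0577 in the CD8αβ progeny, where each of the 6 libraries correlated best with its own number, a hint from the data and not from the labels. With the replicate block, 1159 genes were called between the groups labelled CD8αα, where Lef1 was −0.0537, and 499 for the interaction, where 2 of the 8 genes, Bcl11b and Id3, passed, and Tcf7 passed between CD4 IEL and CD8αβ IEL (0.65).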
